A study of Mus musculus with 20 samples.

Results

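Livers taken after 9 months of a cadmium study in wild-type (WT) mice were compared with livers taken after 3 months, with cadmium exposure as a covariate, to find differences with time that both arms share. The 9-month side held 5 input libraries, 3 from livers of mice given CdCl2 (cadmium chloride) at 100 mg/L in drinking water and 2 from control livers. The 3-month side likewise held 3 libraries of livers exposed to the same dose and 2 of control livers. These 10 of the 20 libraries were chosen by the word input in their titles and descriptions, and the other 10 are not used here. An input library is made from fragmented RNA without the antibody step of m6A sequencing, so its counts follow RNA abundance. The labels give neither age nor sex nor what the controls drank. In the exposed arm the age of the mice and the length of exposure cannot be told apart, and in both arms time cannot be told apart from any batch that went with it. The labels number the libraries but do not say which came from separate animals, so p-values measure the spread between these samples only.

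The adult liver stores glucose as glycogen, turns sugar into fat after feeding and burns fatty acids in fasting, and many of its RNAs also follow the time of day. Nuclear RNA is spliced, packed with export adaptors and passed to the cytoplasm, where ribosomes translate it. Metallothioneins bind cadmium, and METTL3 is the enzyme that writes m6A onto mRNA.

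Each gene was given the count of its most abundant transcript. Library totals over genes were 3958171 to 8912898 counts. Between 12730 and 16519 genes had a count in a library. The hepatocyte marker list (32 genes in the table) summed to between 105677 and 149332 CPM (counts scaled to library size) in the 9-month libraries and between 108504 and 127129 CPM in the 3-month libraries. The defining B cell gene Cd79a and the T cell gene Cd8b1 had no count in any library, while Alb reached 68187 CPM. The 3-month controls stood apart. Their biological coefficient of variation was 0.871, against 0.427 in 9-month exposed, 0.348 in 9-month control and 0.486 in 3-month exposed livers. Their median correlations with the other libraries were 0.848 and 0.831, against 0.91 to 0.946 for the other 8. In 2 of the 9-month libraries, cadmium replicate 1 and control replicate 2, the pancreas marker list (20 genes) summed to 2102 and 10706 CPM, against at most 37.2 CPM in the other 3 of 9 months and 8.77 to 275 CPM in the libraries of 3 months. Calls and list medians that move by over 1.5 times without both 3-month controls or without both pancreas-rich libraries are given with those values.

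Of 13156 genes tested, 3 passed an adjusted p of 0.05 for time (edgeR's quasi-likelihood test with Benjamini-Hochberg adjustment), which is 0.0228% of them, with 0.0076% higher and 0.0152% lower. Alyref, an adaptor of the TREX complex that couples mRNA processing to nuclear export, fell. Sptssa, the small subunit of the serine palmitoyltransferase that starts sphingolipid synthesis, fell too. Serpina12, which encodes the secreted protease inhibitor vaspin, known as an adipokine, rose. In all 3 genes the 5 libraries of 9 months lay wholly on one side of the 5 libraries of 3 months.

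The promoters of these genes are shown because they are the genes called for time in the fit with exposure as a covariate. Each run is the 250 bases before the transcript start in RefSeq's GRCm38.p6, minus strand, 5′ to 3′. Capitals mark a CCAAT box (CCAAT), a GC box (GGGCGG) or a TATA box (TATAAA), read on both strands, with no overlaps among them.
Alyref, chr11:120598366-120598615: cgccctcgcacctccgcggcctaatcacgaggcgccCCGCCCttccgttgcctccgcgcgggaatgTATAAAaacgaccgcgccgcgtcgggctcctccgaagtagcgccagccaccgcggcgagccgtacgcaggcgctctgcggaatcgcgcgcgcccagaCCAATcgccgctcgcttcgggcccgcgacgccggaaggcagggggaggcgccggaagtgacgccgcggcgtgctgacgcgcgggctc
Sptssa, chr12:54656573-54656822: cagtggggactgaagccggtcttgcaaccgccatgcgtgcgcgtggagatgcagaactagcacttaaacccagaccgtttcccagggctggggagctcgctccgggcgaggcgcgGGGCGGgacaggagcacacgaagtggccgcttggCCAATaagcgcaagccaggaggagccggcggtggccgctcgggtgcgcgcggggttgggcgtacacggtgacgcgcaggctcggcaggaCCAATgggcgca
Serpina12, chr12:104044444-104044693: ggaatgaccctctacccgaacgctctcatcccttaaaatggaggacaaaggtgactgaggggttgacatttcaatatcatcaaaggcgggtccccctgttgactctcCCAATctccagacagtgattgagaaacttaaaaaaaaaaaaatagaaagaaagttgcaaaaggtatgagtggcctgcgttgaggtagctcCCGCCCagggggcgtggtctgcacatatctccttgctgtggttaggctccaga
The E-box CACGTG, the site read by clock factors and others, was searched as well and was in none of these 3 windows, and it was in 6.02% of the 32851 promoters of the same length. All 3 windows held CCAAT, which 33.8% of all promoters hold, and a GC box, which 32.7% hold. A TATA box was found in the Alyref window, against 12.4% of all promoters. The GC content was 74.0% for Alyref, 68.8% for Sptssa and 48.4% for Serpina12, against a median of 52.4%. These are matches of letters and not sites of binding.

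Alyref (gene ID 21681, chromosome 11, 120594504 to 120598360) had 5.38, 4.72 and 5.59 CPM in 9-month cadmium livers and 8.11 and 7.69 CPM in 9-month control livers. In 3-month cadmium livers it had 22.8, 26.1 and 29.3 CPM, and in 3-month control livers 47.5 and 40.6 CPM. Each 9-month library was therefore below every 3-month library, and in both periods exposed livers lay below control livers. The means were 6.30 ± 1.5 CPM at 9 months and 33.3 ± 10.4 CPM at 3 months (SD, n = 5 each), with a log2 fold change of -2.38 ± 0.25 (SE) and an adjusted p of 0.00172. The arms were close to each other in size, with -2.32 ± 0.32 in exposed and -2.48 ± 0.39 in control livers, and their difference was 0.16 ± 0.49 (adjusted p = 0.944).

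Sptssa (gene ID 104725, chromosome 12, 54645374 to 54656572) had 33.5, 32.1 and 35.6 CPM in 9-month cadmium livers and 44.4 and 35.1 CPM in 9-month control livers. It had 82.5, 69.6 and 89.2 CPM in 3-month cadmium livers and 171 and 105 CPM in 3-month control livers. The groups do not overlap, and the 9-month values are the tighter set. Its means were 36.2 ± 4.80 CPM at 9 months and 103 ± 39.7 CPM at 3 months, and it fell by 1.47 ± 0.22 (SE) on the log2 scale (adjusted p = 0.0315). The effect was -1.25 ± 0.26 in exposed and -1.80 ± 0.32 in control livers.

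Serpina12 (gene ID 68054, chromosome 12, 104028769 to 104044443) had 142, 168 and 280 CPM in 9-month cadmium livers and 222 and 154 CPM in 9-month control livers. It had 40.8, 68.1 and 57.8 CPM in 3-month cadmium livers and 26.1 and 13.6 CPM in 3-month control livers. At 9 months the arms overlap, and at 3 months both control libraries lay below all 3 exposed ones. The means were 193 ± 57.4 CPM at 9 months and 41.3 ± 22.3 CPM at 3 months, a log2 fold change of 2.38 ± 0.34 (adjusted p = 0.0315). Within the arms it was 1.82 ± 0.35 in exposed and 3.25 ± 0.45 in control livers, a difference of -1.43 ± 0.54 that did not pass the adjusted test (adjusted p = 0.472).

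**Figure D1:**
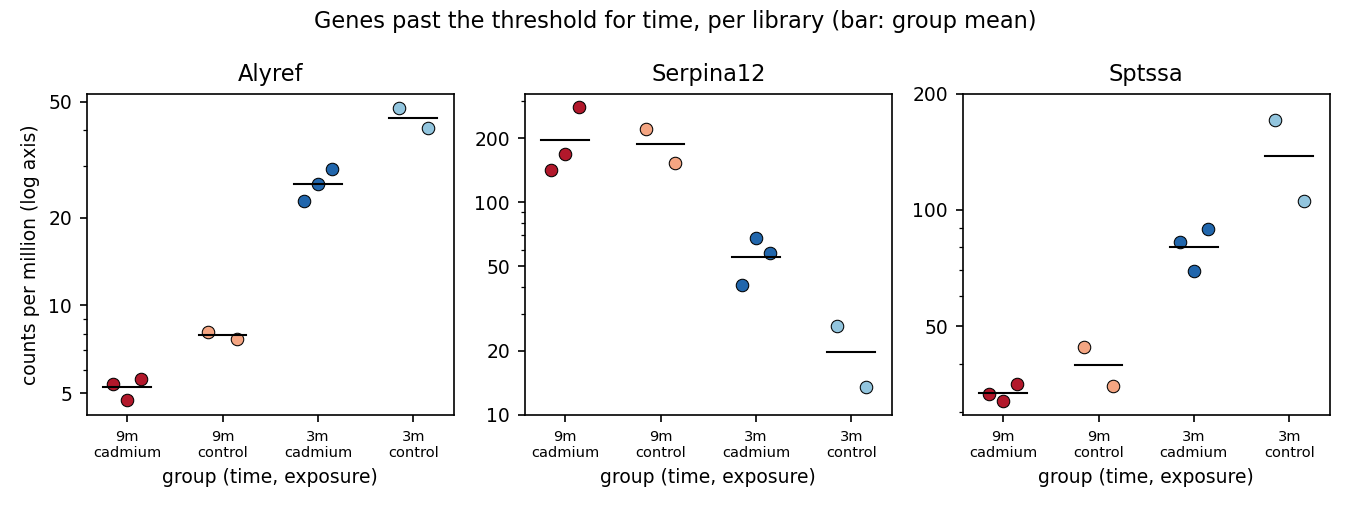
CPM (log axis) of Alyref, Serpina12 and Sptssa in each input library, with 9-month cadmium, 9-month control, 3-month cadmium and 3-month control livers from left to right, and a bar at each group mean. The 5 values of 9 months lie wholly below the 5 of 3 months for Alyref and Sptssa, and wholly above them for Serpina12.

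The call of Alyref was kept when any 1 library was left out (10 of 10 fits), with log2 fold changes of -2.44 to -2.34. The calls of Serpina12 and Sptssa were less steady and were kept in 5 and 2 of those 10 fits. Serpina12 lost its call without 9m cadmium 3 or any 1 of the 3-month exposed libraries (adjusted p = 0.0533 to 0.105), and also without 9m control 2. Of these 10 fits, Sptssa kept its call only in that without 3-month control 2 and that without 3-month control 3. Without the 2 libraries rich in pancreas RNA no gene passed (976 had an unadjusted p under 0.05), with log2 fold changes of -2.37 for Alyref and 2.58 for Serpina12 (both adjusted p = 0.0556) and -1.38 for Sptssa (adjusted p = 0.506). Without both 3-month controls, 6 genes passed, Alyref and Serpina12 among them, while Sptssa did not (log2 fold change -1.25, adjusted p = 0.0583). Serpina12 overlaps the annotated gene Gm31271 and Sptssa the microRNA gene Mir1892, and no source used here says whether reads were counted by strand.

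At an adjusted p under 0.1 there were 40 genes (0.304%), 12 higher (0.0912%) and 28 lower (0.213%) at 9 months. All 40 had the same sign in both arms, against 61.0% of all genes tested, and in 37 of the 40 the groups of 5 did not overlap, against 4.76% of all genes (2.36% with all 9-month libraries above and 2.39% with all below). The fold change was larger in size in control than in exposed livers for 12 of the 12 higher and 24 of the 28 lower genes. These shares come from the contrast that chose the genes and are a description. At an unadjusted p under 0.05 the test passed 1960 genes (14.9%), 6.77% of all genes higher and 8.13% lower. The 12 genes per direction described next comprise the 3 called genes and those that follow them by p among non-overlapping genes of at least 5 CPM. Except for the 3 called genes they did not pass the threshold, and their adjusted p ran from 0.062 to 0.0962.

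Among those higher at 9 months, Khk, which encodes the ketohexokinase that phosphorylates fructose, had 405, 256 and 401 CPM in 9-month cadmium and 340 and 490 CPM in 9-month control livers. It had 138, 206 and 176 CPM in 3-month cadmium and 144 and 97.7 CPM in 3-month control livers, and its log2 fold change was 1.33 ± 0.25. The lowest 9-month value, 256 CPM, is above the highest 3-month value, 206 CPM. Ppp1r3b, the subunit that brings protein phosphatase 1 to glycogen in liver, had 158, 210 and 185 CPM in 9-month cadmium and 236 and 451 CPM in 9-month control livers. At 3 months Ppp1r3b had 72.3, 114 and 75.6 CPM in cadmium and 126 and 67.3 CPM in control livers, a log2 fold change of 1.38 ± 0.27. The top Ppp1r3b value is that of 9-month control 2.

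Endog, a mitochondrial nuclease, averaged 65.5 ± 14.5 CPM at 9 months and 22.2 ± 7.89 CPM at 3 months (log2 fold change 1.56 ± 0.27). Prodh2, a hydroxyproline dehydrogenase, averaged 193 ± 33.4 and 85.9 ± 28.3 CPM at 9 and 3 months (1.21 ± 0.24). Prelid1, which carries phosphatidic acid between the mitochondrial membranes, averaged 86.5 ± 22.9 CPM at 9 months and 32.9 ± 13.3 CPM at 3 months (1.46 ± 0.30). In Prelid1 the log2 fold change was 0.83 in exposed and 2.43 in control livers, the widest gap between arms among the 24 genes, with an unadjusted p of 0.00226 for the difference in the fit across all genes and an adjusted p of 0.422. Aurkaip1, a protein of the mitochondrial ribosome, averaged 15.4 ± 2.87 CPM at 9 months and 4.74 ± 1.16 CPM at 3 months (1.68 ± 0.35).

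The remaining higher genes serve other processes. The redox protein thioredoxin, Txn1, averaged 41.5 ± 13.1 CPM at 9 months and 15.6 ± 3.64 CPM at 3 months, and its arms were alike, at log2 fold changes of 1.39 in exposed and 1.44 in control livers. Gba2, the glucosylceramidase outside lysosomes, averaged 34.9 ± 10.9 CPM at 9 months and 13.3 ± 3.01 CPM at 3 months. Nr2f6, an orphan nuclear receptor, averaged 199 ± 48.7 and 88.0 ± 17.6 CPM at 9 and 3 months. Acat3, an acetyl-CoA acetyltransferase, and Gltpd2, of the glycolipid transfer protein domain family, had log2 fold changes of 1.37 ± 0.29 and 1.02 ± 0.21. Endog, Gba2, Acat3 and Prelid1 overlap other annotated genes.

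Among those lower at 9 months, Siah1a, a ubiquitin ligase, had 10.3, 8.82 and 12.2 CPM in 9-month cadmium and 11.7 and 12.7 CPM in 9-month control livers. It had 30.4, 30.4 and 24.7 CPM in 3-month cadmium and 34.5 and 71.5 CPM in 3-month control livers (log2 fold change -1.72 ± 0.28). The 9-month values lie close together, while 3-month control 3 stands high. Smad1, which carries bone morphogenetic protein signals to the nucleus, had 14.4, 26.3 and 32.9 CPM in 9-month cadmium and 31.3 and 24.1 CPM in 9-month control livers. At 3 months Smad1 had 68.5, 48.8 and 65.6 CPM in cadmium and 73.1 and 88.6 CPM in control livers (-1.41 ± 0.24).

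Tmed5, a cargo receptor of early secretory vesicles, averaged 117 ± 40.7 CPM at 9 months and 339 ± 103 CPM at 3 months (log2 fold change -1.50 ± 0.26). Stxbp3, which regulates vesicle fusion, averaged 30.8 ± 4.97 and 73.5 ± 21.9 CPM at 9 and 3 months (-1.23 ± 0.24). For both, every 9-month library was below every 3-month library. Dcun1d5, a factor in cullin neddylation, averaged 10.3 ± 2.15 CPM at 9 months and 34.8 ± 18.0 CPM at 3 months (-1.65 ± 0.31). Cops2, a subunit of the COP9 signalosome that removes NEDD8 from cullins, averaged 83.8 ± 10.8 and 175 ± 31.5 CPM at 9 and 3 months (-1.05 ± 0.20). Usp3, a deubiquitinase of histones, had the smallest fold change of the 24 genes, -0.98 ± 0.19, at 37.4 ± 5.77 CPM at 9 months and 73.3 ± 5.22 CPM at 3 months. Tbck had -1.06 ± 0.21, and the long noncoding RNA Gm42127, which overlaps Hnrnpd, had -1.42 ± 0.24.

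**Figure D2:**
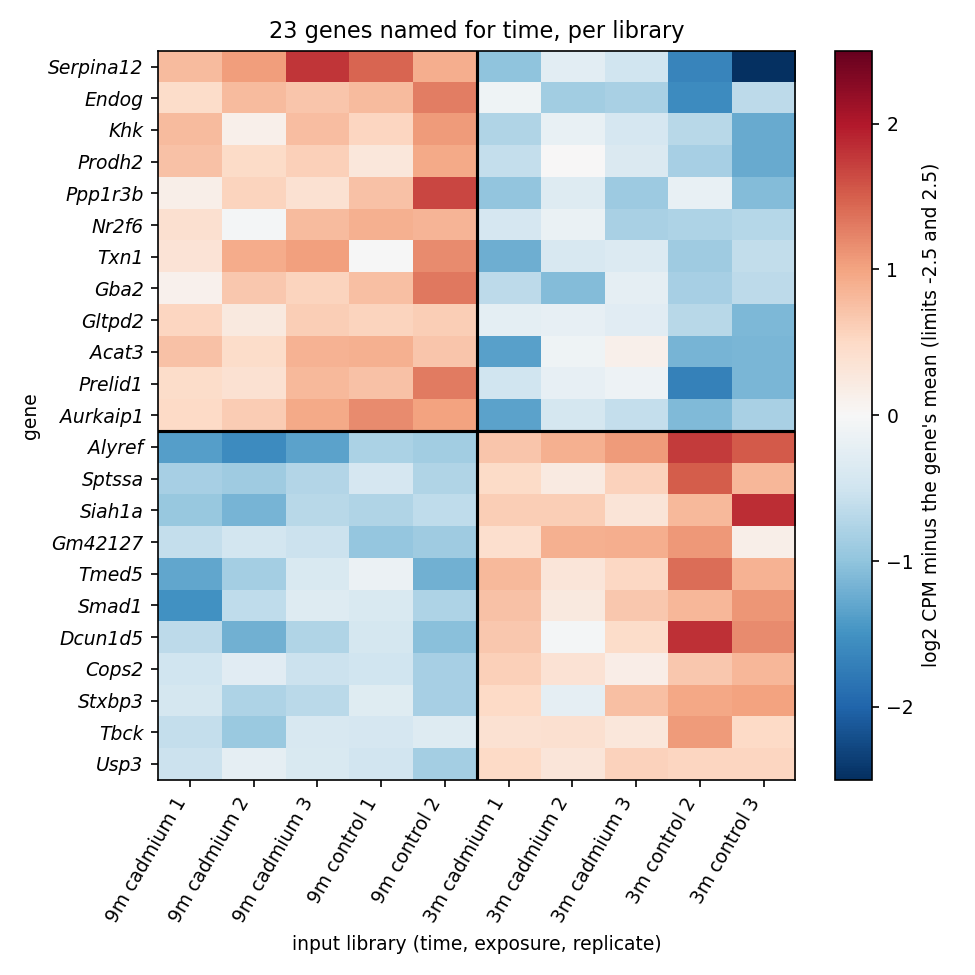
Log2 CPM minus the gene's own mean over the 10 libraries, for 23 of the 24 named genes (rows, 12 higher above the line and 11 lower below it) in the 9-month libraries (left) and the 3-month libraries (right). Colours run from -2.5 to 2.5, and in each row the 5 columns of 9 months lie on one side of the 5 columns of 3 months.

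Other genes are named here after their values were seen. All but Saa1 (adjusted p = 0.107 for time in the main fit) had an adjusted p under 0.1. Hes7, a repressor of the segmentation clock in embryos, averaged 4.76 ± 2.74 CPM at 9 months and 28.3 ± 17.6 CPM at 3 months. Its groups overlap, because 3-month control 2 had 8.01 CPM, against 8.70 CPM in 9-month cadmium 1. Cyp4a31, of the fatty acid hydroxylase family induced through PPARA, averaged 3.39 ± 2.85 CPM at 9 months and 32.0 ± 23 CPM at 3 months (log2 fold change -3.30 ± 0.67), with 2.76 CPM in 3-month cadmium 3. Lars2, a mitochondrial leucyl-tRNA synthetase, and Xkrx, an XK-related protein, passed in the exposed libraries alone (log2 fold changes -2.19 and -1.37, both adjusted p = 0.0298), beside Alyref and the acute phase gene Saa1 (4.90, adjusted p = 0.0298). Saa1 had 95.4, 92.4 and 14.1 CPM in 9-month cadmium livers and 0.907, 2.34 and 3.42 CPM in 3-month cadmium livers. In controls it had 5.86 and 27.0 CPM at 9 months and 6.99 and 6.85 CPM at 3 months. Lars2 overlaps the annotated gene Gm46137. Its control livers overlap between the times, with 47.7 CPM in 9-month control 2 and 47.5 CPM in 3-month control 3. Xkrx averaged 5138 ± 2071 CPM at 9 months and 20221 ± 12403 CPM at 3 months. It reached 41107 CPM in 3-month control 2, where Alb had 46020 CPM, and the source of so high a count was not tested.

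Whether the effect of time differs between arms was tested as an interaction. No gene passed (0 of 13156, smallest adjusted p 0.405, edgeR's quasi-likelihood test), 1250 genes had an unadjusted p under 0.05 (9.5%), and DESeq2 called 42 genes. The count rested on the 3-month controls. Without control 2 of 3 months 266 genes passed, and without control 3 of 3 months 551 passed, in each case with a lone 3-month control, whose spread is taken to be that of the rest. A difference that misses the threshold does not show that the arms act alike, and the SE of a difference was 0.49 for Alyref and 0.54 for Serpina12. In a fit with 4 groups that share 1 estimate of the spread, the time effect passed for 0 genes in exposed livers (0.0%, smallest adjusted p 0.0841, 648 genes at an unadjusted p under 0.05) and for 239 genes in control livers (1.82%). Fitted on the libraries of 1 arm at a time, it passed for 4 genes in exposed livers and for 0 in control livers (1442 at an unadjusted p under 0.05), so which arm holds more calls turned with the fit. The mean of both arms passed for 367 genes (2.79%), which include all 24 named genes, against the 3 of the additive fit.

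**Figure D3:**
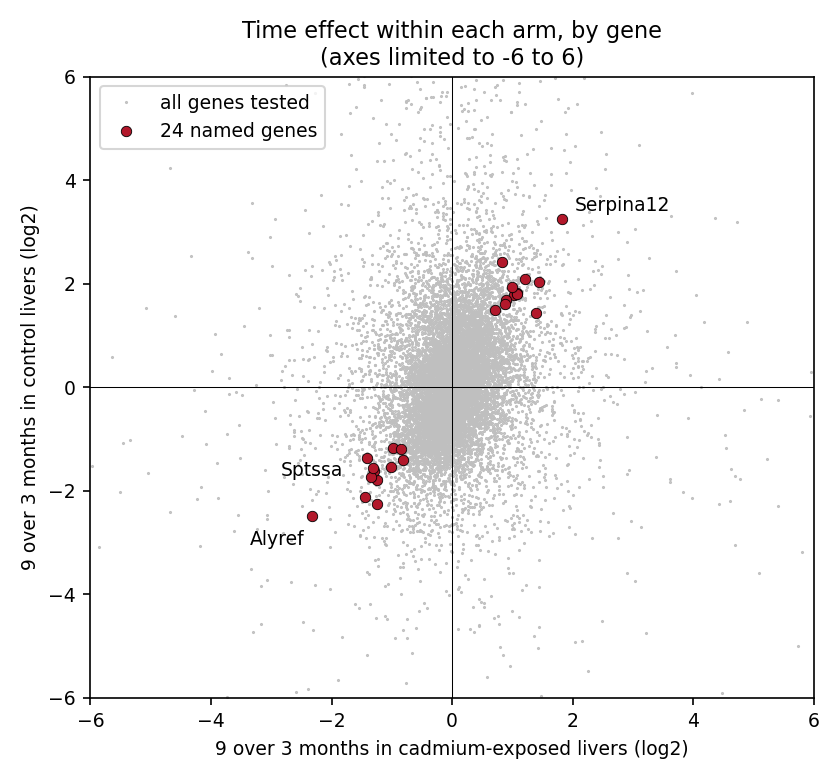
Log2 fold change of 9 over 3 months in cadmium-exposed livers (x axis) and in control livers (y axis) for each gene tested (grey) and the 24 named genes (red), with 228 genes beyond 6 on either axis not drawn. The named genes lie in the upper right and lower left corners, and Prelid1 and Serpina12 sit higher in control than in exposed livers.

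The gene lists gave no further calls, with 0 list members past the threshold, and they are described by counts and medians beside all genes tested, whose median log2 fold change was 0.04 with 52.5% above 0. Counts at an unadjusted p under 0.05 stand against 6.77% of all genes higher and 8.13% lower for time, and against 9.5% for the difference between arms. Ranges of a list median come from leaving out each of the 10 libraries in turn. Genes for the use of glucose and glycogen lay on the higher side. Of 16 tested, 14 had a log2 fold change above 0, the median was 0.50, and 6 had an unadjusted p under 0.05, all higher. Slc2a2, the liver glucose transporter and an abundant member that was not among these 6, averaged 707 ± 147 CPM at 9 months and 494 ± 292 CPM at 3 months (0.55 ± 0.51). Among the 6, picked after their values were seen, was Pygl, liver glycogen phosphorylase, with 207, 182 and 238 CPM in 9-month cadmium and 230 and 286 CPM in 9-month control livers, against 88.0, 134 and 129 CPM in 3-month cadmium and 174 and 111 CPM in 3-month control livers.

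Pygl had nearly the same log2 fold change in exposed (0.84) and control livers (0.86). Pklr, liver pyruvate kinase, had 0.81 in exposed and 2.49 in control livers. The list median was 0.25 in exposed and 0.95 in control livers. It was 0.26 without both 3-month controls, and it ranged from 0.40 to 0.64.

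Fatty acid and triglyceride synthesis had 12 of 17 genes above 0 (median 0.36), and 4 with an unadjusted p under 0.05, all higher. The median was 0.13 in exposed (10 of 17 above 0) and 0.51 in control livers, 0.14 without both 3-month controls and 0.22 with an offset for transcript length, which is described with the ribosomal genes. The 2 most abundant members, the desaturase Scd1 and the elongase Elovl5, had log2 fold changes of -0.20 ± 0.47 and -0.21 ± 0.30. Srebf1, the transcription factor that turns on fat synthesis, had 132, 88.3 and 120 CPM in 9-month cadmium and 86.3 and 47.9 CPM in 9-month control livers. Srebf1 had 43.4, 56.5 and 92.5 CPM in 3-month cadmium and 1.44 and 21.9 CPM in 3-month control livers. Both Srebf1 and its target Fasn, fatty acid synthase, were picked after their values were seen, with adjusted p of 0.201 and 0.255.

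Genes of fatty acid oxidation and PPARA targets lay on the lower side as a list, with 21 of 28 below 0 and a median of -0.26 (range -0.40 to -0.08, and -0.42 without both 3-month controls). Of these, 4 had an unadjusted p under 0.05 and were lower, and 1 was higher. The arms differed in sign, with a median of -0.43 in exposed and 0.29 in control livers. Cyp4a14, a PPARA-induced fatty acid hydroxylase, had 772, 524 and 704 CPM in 9-month cadmium and 1190 and 3476 CPM in 9-month control livers. Cyp4a14 had 14880, 6869 and 636 CPM in 3-month cadmium and 3714 and 1426 CPM in 3-month control livers. Replicates 1 and 2 of the 3-month cadmium livers hold the highest values and replicate 3 one of the lowest. Its log2 fold change was -3.48 ± 0.82 in exposed and -0.14 ± 0.91 in control livers (adjusted p of the difference 0.457). Cyp4a10, of the same family and picked after its values were seen, had -2.57 and -0.03, and the peroxisomal enzyme Ehhadh had -2.10 and -0.64 in exposed and control livers.

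Subunits of the respiratory chain lay higher in both arms. Of 30 tested, 26 had a log2 fold change above 0, with a median of 0.54 (0.29 in exposed and 0.82 in control livers), and at an unadjusted p under 0.05 there were 12 higher and 1 lower. The median was 0.30 without both 3-month controls. The most abundant members, the ATP synthase subunits Atp5a1 and Atp5b, had 0.08 ± 0.18 and 0.34 ± 0.19. Cox8a, a subunit of cytochrome c oxidase picked after its values were seen, had 61.2, 53.8 and 65.0 CPM in 9-month cadmium and 73.0 and 70.3 CPM in 9-month control livers, against 23.3, 37.0 and 33.2 CPM in 3-month cadmium and 18.3 and 46.1 CPM in 3-month control livers. All its 9-month values are above all its 3-month values (log2 fold change 1.03 ± 0.25, adjusted p = 0.107). Cytosolic ribosomal proteins had 25 of 34 above 0 and a median of 0.39, with 8 higher and 0 lower at an unadjusted p under 0.05. Their median was 0.24 without both 3-month controls, 0.22 without the pancreas-rich libraries, and ranged from 0.21 to 0.50. Rps2 averaged 846 ± 61.2 CPM at 9 months and 496 ± 63.1 CPM at 3 months, with no overlap, and Rpl7 averaged 878 ± 86.0 and 885 ± 196 CPM. Rps14 had a log2 fold change of 1.12 ± 0.30.

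These lists hold short transcripts, and the fold change of all genes moved with transcript length. Spearman's rho between the log2 fold change and the length of the transcript was -0.227 over 13156 genes (-0.156 in exposed and -0.21 in control livers), which share the same libraries. In 5 length classes of equal size the median was 0.29 (56 to 1732 bases), 0.15, 0.05, -0.08 and -0.15 (5360 to 104361 bases). The respiratory chain and ribosomal lists have median lengths of 878 and 746 bases, against 3126 bases for all genes. An offset that follows length was then fitted to each library from these same counts. It takes out any change that goes with length, whatever its source, so it cannot tell a change in the liver from one in the libraries. With it, the respiratory chain median became 0.11 and the ribosomal median -0.05, with 19 of 30 and 16 of 34 above 0. The median of the glucose and glycogen list was 0.41 with that offset, that of the PPARA list -0.45 and that of splicing factors -0.50. Alyref and Serpina12, of 1252 and 3690 bases, kept their calls with log2 fold changes of -2.78 and 2.33. Sptssa, of 1363 bases, had -1.84 (adjusted p = 0.0504). The genes at an adjusted p under 0.1 also differed in length by direction. Their median was 1704 bases for the 12 higher and 3870 bases for the 28 lower genes. Among the higher genes, the offset changed the log2 fold change of Gltpd2 from 1.02 to 0.62 and that of Txn1 from 1.41 to 0.98. That of Ppp1r3b went from 1.38 to 1.41. Fragmentation and RNA quality were not given per library, and their part in the relation with length was not tested.

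**Figure D4:**
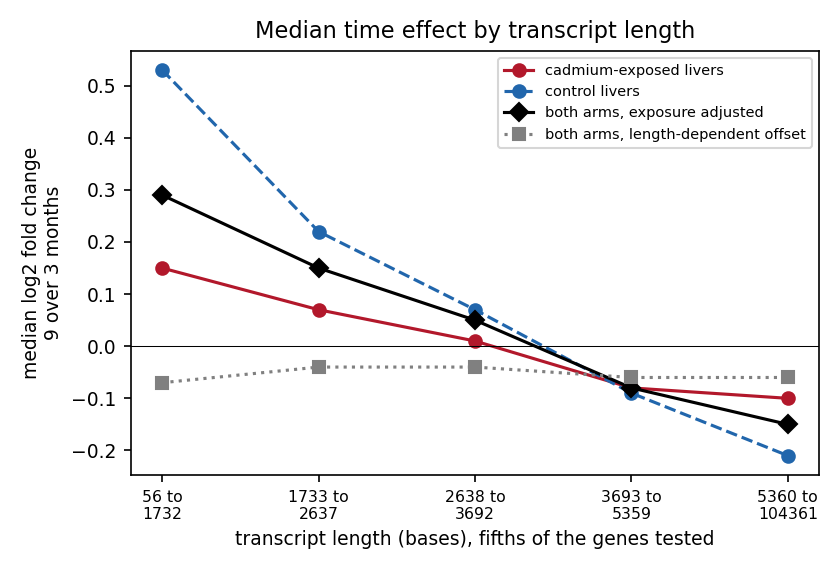
Median log2 fold change of 9 over 3 months in 5 classes of transcript length (x axis, bases), for exposed livers, control livers, both arms with exposure adjusted, and both arms with a length-dependent offset per library. The median for both arms is 0.29 in the shortest class and -0.15 in the longest. With the offset, which removes the relation with length by design, it lies between -0.07 and -0.04 in every class.

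Splicing factors and nuclear noncoding RNAs lay lower in both arms, with 14 of 20 below 0 and a median of -0.53 (-0.26 in exposed and -0.77 in control livers). Without both 3-month controls the median was -0.25, and it ranged from -0.61 to -0.34. At an unadjusted p under 0.05 there were 9 lower and 1 higher, against 8.13% and 6.77% of all genes. Srsf3, a serine and arginine rich splicing factor picked after its values were seen, had 67.9, 80.3 and 102 CPM in 9-month cadmium and 112 and 80.6 CPM in 9-month control livers. It had 191, 144 and 117 CPM in 3-month cadmium and 327 and 167 CPM in 3-month control livers, above every 9-month library (log2 fold change -1.06 ± 0.25, adjusted p = 0.107). Clk1, a kinase of these factors, also had all 9-month values below all 3-month values (-0.85 ± 0.20). The 2 most abundant members were Hnrnpu, with -0.35 ± 0.20, and the nuclear noncoding RNA Malat1, with 0.10 ± 0.20.

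The m6A list, the machinery the study is named for, had 12 of 18 genes below 0 with a median of -0.12, and 3 lower and 0 higher at an unadjusted p under 0.05. In exposed livers 9 of the 18 were above 0 with a median of 0.02, in control livers the median was -0.24, and without both 3-month controls it was 0.03. Mettl3 had 6.96, 8.34 and 6.0 CPM in 9-month cadmium and 10.4 and 5.83 CPM in 9-month control livers, against 11.5, 10.2 and 3.94 CPM in 3-month cadmium and 13.6 and 6.03 CPM in 3-month control livers. The groups overlap, and the log2 fold change of Mettl3 was -0.27 ± 0.43 (adjusted p = 0.828), at a level of only a few CPM and with the gene Tox4 overlapping it. Ythdf3, a cytoplasmic reader of m6A picked after its values were seen, had 133, 116 and 117 CPM in 9-month cadmium and 107 and 88.2 CPM in 9-month control livers. It had 166, 168 and 215 CPM in 3-month cadmium and 342 and 237 CPM in 3-month control livers. All 9-month values of Ythdf3 are below all 3-month values (-0.98 ± 0.23, adjusted p = 0.107). The eraser Alkbh5 and the m6A-binding Hnrnpa2b1, the most abundant members, had -0.10 ± 0.19 and 0.01 ± 0.17.

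The metallothionein genes Mt1 and Mt2 overlapped between the times. Mt1 had 56.7, 195 and 49.5 CPM in 9-month cadmium and 43.3 and 104 CPM in 9-month control livers, against 120, 57.3 and 131 CPM in 3-month cadmium and 31.2 and 1180 CPM in 3-month control livers. Mt2 had 10.1, 60.3 and 5.59 CPM in 9-month cadmium and 7.66 and 26.1 CPM in 9-month control livers, against 24.8, 16.6 and 24.6 CPM in 3-month cadmium and 1.03 and 421 CPM in 3-month control livers. The highest value of each gene is that of 3-month control 3. Their log2 fold changes of -1.18 ± 0.83 and -1.24 ± 1.15 (adjusted p = 0.555 and 0.68) became 0.32 and 0.91 without that library. The metal handling list as a whole had 11 of 22 above 0 (median 0.04, and -0.04 without both 3-month controls). Trf, the iron carrier transferrin, had 0.43 ± 0.21, and Ftl1, a ferritin subunit, had 0.19 in exposed and 1.84 in control livers. Tfrc, the transferrin receptor, picked after its values were seen, averaged 36.6 ± 11.3 CPM at 9 months and 91.1 ± 52.7 CPM at 3 months (-1.16 ± 0.30).

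In the circadian clock list 13 of 19 genes were above 0 (median 0.27, range 0.13 to 0.67), with 3 higher and 3 lower at an unadjusted p under 0.05. Rora, a nuclear receptor of the clock, had log2 fold changes of -0.15 in exposed and -1.37 in control livers, and Nr1d2, a clock repressor, had 0.03 and -0.34. Dbp, a clock output gene picked after its values were seen, had 26.6, 37.3 and 27.3 CPM in 9-month cadmium and 2.03 and 1.33 CPM in 9-month control livers. It had 10.3, 17.2 and 31.8 CPM in 3-month cadmium livers, and 0.205 CPM and no count in 3-month control livers. Arntl, the clock activator also known as Bmal1, had 99.2 and 81.8 CPM in 3-month controls, against 12.8 and 23.7 CPM in 9-month controls and at most 13.8 CPM in exposed livers of either time. No source used here gives the time of day at which livers were taken, and its part in these values was not tested. In the immediate early list 10 of 14 were above 0. Its median was 0.43, ranged from 0.15 to 0.75 and was 0.86 without the pancreas-rich libraries, with 5 of the 14 at an unadjusted p under 0.05 for the difference between arms, against 9.5% of all genes. Jund had 0.63 ± 0.31 in exposed and 1.58 ± 0.39 in control livers, and Egr1 had -0.68 and 1.94.

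In several lists with a joint median near 0, the medians of the arms lay on opposite sides of 0. Glucocorticoid and fasting genes had a median of 0.57 in exposed and -1.25 in control livers. Their joint median was -0.01, ranged from -0.37 to 0.57, and was 0.58 without both 3-month controls and 0.21 without the pancreas-rich libraries, and 8 of 16 had an unadjusted p under 0.05 for the difference between arms. Tat, the tyrosine aminotransferase induced by glucocorticoids, had 1851, 6088 and 1760 CPM in 9-month cadmium and 1117 and 1493 CPM in 9-month control livers, against 1102, 1157 and 1466 CPM in 3-month cadmium and 1329 and 9933 CPM in 3-month control livers. The highest Tat value is that of the 3-month control that is highest for Mt1 and Mt2. Pck1, the rate-setting enzyme of glucose synthesis, had 1.22 in exposed and 0.53 in control livers. Genes of fat uptake and lipid droplets had medians of -0.34 in exposed livers (5 of 18 above 0) and 0.41 in control livers (15 of 18). Their joint median was -0.03, and it was -0.34 without both 3-month controls and -0.13 without the pancreas-rich libraries. Amino acid and one-carbon genes had 0.22 in exposed and -0.16 in control livers. Their joint median was 0.01, and it was 0.23 without both 3-month controls and 0.11 without the pancreas-rich libraries. Male-biased liver genes had a joint median of -0.03, which was 0.53 without both 3-month controls and 0.17 without the pancreas-rich libraries. Their medians were 0.52 in exposed and -0.89 in control livers, with 10 of 22 at an unadjusted p under 0.05 for the difference. Mup7, a major urinary protein, had 19786 CPM in the same 3-month control and 20719 CPM in 9-month cadmium 2, and between 1962 and 7706 CPM in the other 8 libraries. Hsd3b5, a male-biased steroid enzyme picked after its values were seen, had 1.43 in exposed and 1.89 in control livers.

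The unfolded protein and integrated stress list had 16 of 24 above 0 (median 0.41), with 6 higher and 2 lower at an unadjusted p under 0.05. Its most abundant members were Hsp90b1, a chaperone of the endoplasmic reticulum, at -0.54 ± 0.25, and the transcription factor Xbp1, at -0.29 ± 0.21. Manf, a secreted protein of that compartment picked after its values were seen, had 22.9, 22.2 and 18.0 CPM in 9-month cadmium and 4.51 and 26.5 CPM in 9-month control livers, against 2.42, 7.70 and 3.94 CPM in 3-month cadmium and 5.14 and 3.36 CPM in 3-month control livers. The first 9-month control lies among the 3-month values of Manf (log2 fold change 2.05 ± 0.47, adjusted p = 0.107). Creld2 had 1.62 ± 0.54. Exocrine pancreas is rich in these proteins, and its marker sum is highest in 9-month control 2 and 9-month cadmium 1. Without those libraries the list median was 0.11, with 14 of 24 above 0, and leaving out 1 library gave 0.25 to 0.67. All 13 pancreas markers tested were above 0 (median 6.23), against 1 of them without those libraries (median -1.30). Whether other genes carry RNA from that source was not tested beyond the fits without those libraries. In 9-month cadmium 2 and 3, where Manf had 22.2 and 18.0 CPM, the pancreas marker sums were 22.984 and 30.23 CPM. Over 23 alternative fits, the log2 fold change was 1.5 to 2.33 for Manf and 1.07 to 2.46 for Creld2. The cause of the values of the stress list was not tested.

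Glutathione and NRF2 target genes had 19 of 25 above 0 (median 0.44, and 0.14 in exposed and 0.79 in control livers), with 6 higher and 3 lower at an unadjusted p under 0.05. Gpx1, a glutathione peroxidase, averaged 1873 ± 218 CPM at 9 months and 1341 ± 416 CPM at 3 months (0.54 ± 0.20), and catalase, Cat, had 0.34 ± 0.32. With the length offset the list median was 0.13, and without both 3-month controls it was 0.15. In bile acid synthesis and transport, 14 of 20 were above 0 (median 0.20, and 0.13 without both 3-month controls), and 2 members were picked after their values were seen. The receptor Nr0b2, which represses bile acid synthesis, averaged 25.4 ± 4.46 CPM at 9 months and 9.30 ± 6.69 CPM at 3 months, with no overlap (log2 fold change 1.63 ± 0.42, adjusted p = 0.11). Cyp8b1, the sterol hydroxylase that makes cholic acid, averaged 359 ± 148 and 723 ± 272 CPM at 9 and 3 months (-1.03 ± 0.26, adjusted p = 0.107).

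**Figure D5:**
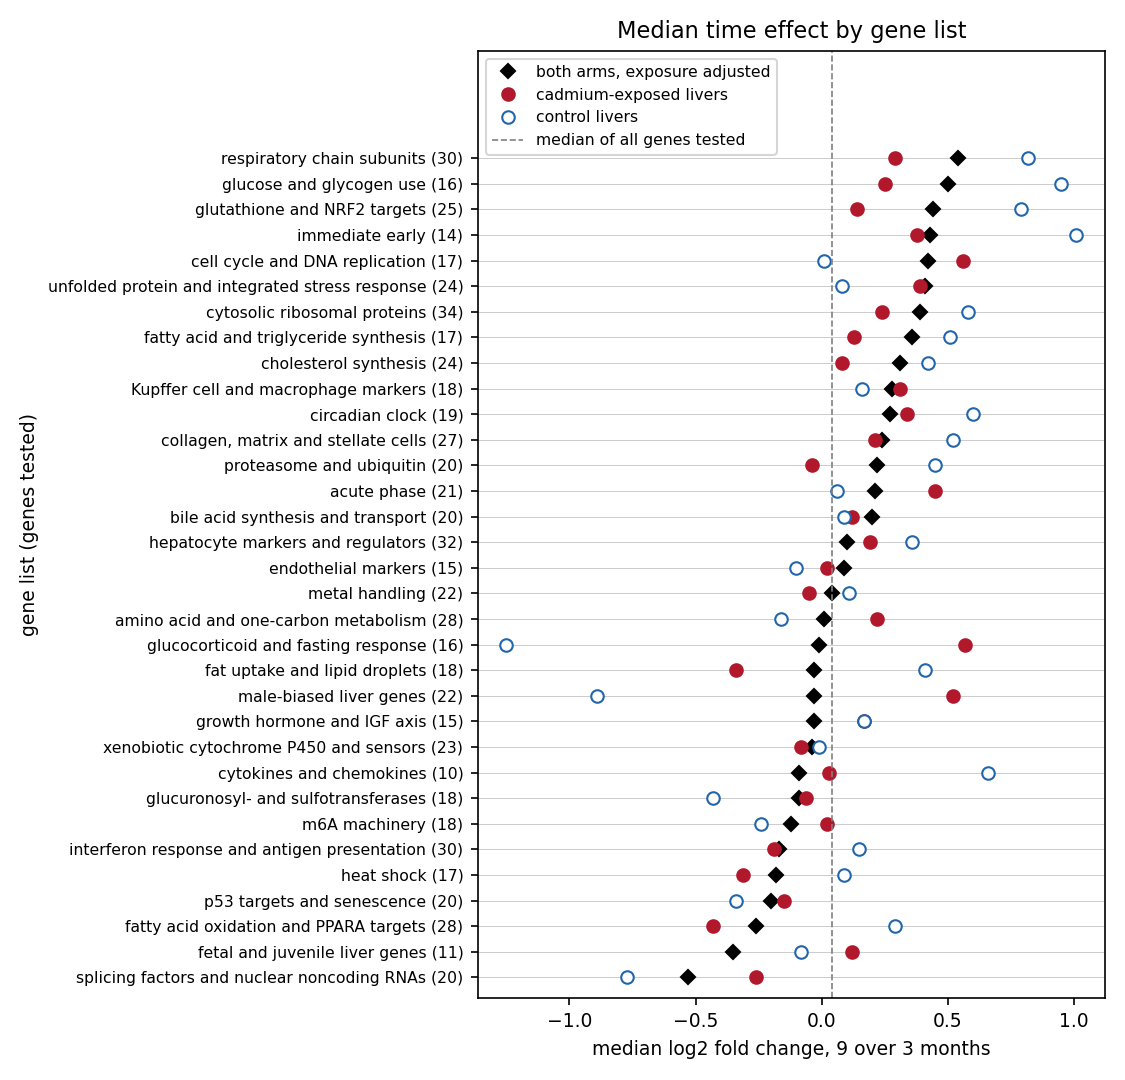
Median log2 fold change of 9 over 3 months for each gene list with at least 10 genes tested, for both arms with exposure adjusted (black diamonds), cadmium-exposed livers (red) and control livers (open blue), with the median of all genes as a dashed line. The pancreas and structural small RNA lists are left out. Respiratory chain and glucose genes lie at the top, splicing factors at the bottom, and glucocorticoid and male-biased genes have arms on opposite sides of 0.

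Markers of other liver cells gave no call for time, and in bulk tissue fewer cells of a type and less RNA per cell cannot be told apart. Kupffer cell and macrophage markers summed to between 1019 and 1476 CPM at 9 months and between 589 and 1380 CPM at 3 months, with 10 of 18 above 0. Clec4f, which marks Kupffer cells, averaged 128 ± 30.5 CPM at 9 months and 94.9 ± 27.5 CPM at 3 months (0.42 ± 0.23), and Slc40a1, the iron exporter, had 0.53 ± 0.29. C1qa, a complement gene of macrophages picked after its values were seen, had 26.4, 16.1 and 17.2 CPM in 9-month cadmium and 19.8 and 18.3 CPM in 9-month control livers, against 6.20, 10.3 and 5.26 CPM in 3-month cadmium and 9.45 and 7.54 CPM in 3-month control livers. All 9-month values of C1qa are above all 3-month values, at an adjusted p of 0.107. Endothelial markers summed to between 856 and 1046 CPM at 9 months and between 862 and 1041 CPM at 3 months. Of the 15, 8 were above 0 and 7 below, with a median of 0.09 (0.02 without both 3-month controls). All 9-month libraries lay below all 3-month libraries for 3 of them, against 2.39% of all genes, and above for 0. At an unadjusted p under 0.05, 2 were lower and 0 higher. Cdh5, the cadherin gene of endothelial junctions, picked after its values were seen, had 20.3 to 26.9 CPM at 9 months and 27.8 to 66.1 CPM at 3 months. Lymphocyte markers summed to between 22.1 and 29.4 CPM and between 19.3 and 40.3 CPM at 9 and 3 months. Erythroid markers summed to between 60.1 and 156 CPM at 9 months and between 31.0 and 93.7 CPM at 3 months. All 5 tested were above 0 (median 0.84, and 0.44 without both 3-month controls), with 1 at an unadjusted p under 0.05, and the sums overlap. Neutrophil markers summed to between 1.99 and 5.70 CPM at 9 months and between 3.70 and 14.5 CPM at 3 months, and both markers tested were below 0.

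Collagen, matrix and stellate cell genes had 21 of 27 above 0 (median 0.24, and 0.13 without the pancreas-rich libraries), with 1 higher and 3 lower at an unadjusted p under 0.05. The most abundant were fibronectin, Fn1, at 0.18 ± 0.19, and Reln at 0.06 ± 0.18, and the fibrillar collagen Col3a1, picked after its values were seen, had 1.33 ± 0.50 (adjusted p = 0.229). Adipose and mesothelial markers summed to between 609 and 1339 CPM at 9 months and between 48.5 and 623 CPM at 3 months. Nearly all of that sum is Car3, a carbonic anhydrase of adipocytes that is also high in liver, with 1258, 608 and 1336 CPM in 9-month cadmium and 1198 and 784 CPM in 9-month control livers, against 47.8, 621 and 580 CPM in 3-month cadmium and 314 and 276 CPM in 3-month control livers. Adipoq, which defines adipocytes, was at 0 in 8 libraries and at most 1.59 CPM. Serpina12 is known from adipose tissue as well, and the part of adipose RNA in its value was not tested. Cell cycle genes had 13 of 17 above 0 (median 0.42, range 0.10 to 0.63), with 0 at an unadjusted p under 0.05, and their median was 0.56 in exposed and 0.01 in control livers. Of the p53 targets, 13 of 20 were below 0 (median -0.20, range -0.43 to -0.10, and -0.31 without the pancreas-rich libraries), and the 1 gene at an unadjusted p under 0.05 was higher.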

How the data were processed

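RNA abundance was read from the deposited table of the m6A sequencing study, which holds counts per RefSeq transcript, not normalised, per the file headers, and TPM that the authors deposited beside them. TPM were used for transcript lengths (count over TPM) and for mean levels. Per the submitters' processing notes, the tools named are TopHat2 2.0.13, MACS2 2.1.0.20151222 and bcl2fastq, and 3 builds (hg19, mm10, rn6) are listed with no role. No source used here names the counter, its strand setting or the annotation. Of 21241 genes compared with GRCm38.p6, 73.8% had the same start or end.

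The table has 79884 transcripts of 21769 genes. Isoforms share reads (in 77.1% of 8618 genes the second transcript has over 90% of the first), so each gene took the transcript with the highest summed count. Columns of 6 other libraries (12 columns) match no sample and were not used.

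The filter filterByExpr kept 13156 genes, and edgeR 4.0.16 (R 4.3.3) fitted their TMM-scaled counts, with exposure and time as additive terms and no replicate block, and again with 4 groups for the difference between arms. A gene was called at an adjusted p (Benjamini-Hochberg, over all genes tested) under 0.05 in the two-sided quasi-likelihood test. An SE is the log2 fold change divided by the square root of F. CPM are TMM-scaled. Tests were run on simulated counts first, and small changes were mostly missed. The test for time recovered 5.97% of genes changed 2-fold, 58.2% of those changed 4-fold and 81.8% of those changed 8-fold, with 4 false calls. For the difference between arms these shares were 0%, 10.4% and 19.7%, with 1 false call. The simulation gave each gene the same spread in every library. In the data the biological coefficient of variation was 0.871 in 3-month controls and 0.348 to 0.486 in the other groups, so the shares may not hold for these libraries. DESeq2 1.42.0, limma 3.58.1, Python 3.11.15, pandas 2.3.3, numpy 2.4.6 and matplotlib 3.10.9 served for alternatives, tables and plots.

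The named genes are those past the threshold with at least 5 CPM in the higher time and no overlap between times, completed by unadjusted p to 12 per direction, with up to 2 of the most abundant members of each described list, and Mettl3, Mt1 and Mt2. Of these, 1 gene of the 24 and 3 list members are not reported here. The libraries, the 43 gene lists (920 symbols, 746 tested) and the rule were chosen with earlier results of these data known. Alternatives were other tools and scalings, filters, sums over transcripts, each arm alone, fits without doubted libraries, a replicate block and leaving out each library. A length-dependent offset (lowess span 0.3) was added after seeing the data.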

Additional observations from a re-analysis of the deposited data

Results flagged for a closer look

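Sets of 5 libraries were searched for a lone extreme, 56 in all (27 named genes and the pancreas marker sum, at 2 times). Chance passes Dixon's 95% limit in about 1 in 20 sets only for independent values from a single normal distribution. Each set here mixes both arms and the sets share libraries, so the count cannot be set against that rate. In 10 sets the highest or lowest library was further from the rest than the limit. Among the 9-month libraries these were control 2 for Ppp1r3b (451 CPM), cadmium 2 for Gltpd2 (88.2 CPM, the lowest), control 1 for Sptssa (44.4 CPM) and control 2 for the pancreas marker sum (10706 CPM). Among the 3-month libraries, control 3 stood out for Siah1a (71.5 CPM), Mt1 (1180 CPM), Mt2 (421 CPM) and the pancreas marker sum (275 CPM). Control 2 of 3 months stood out for Tbck (80.1 CPM) and cadmium 2 for Usp3 (64.2 CPM, the lowest).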

How the results depend on the processing

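The count of genes called for time was 3, and 542 with DESeq2 (4642 genes without an adjusted p), 513 with no filter on low counts, 367 for the mean of the arms, 40 at an adjusted p under 0.1, 16 with library weights, 6 without both 3-month controls, 1 with sums over transcripts, and 0 on the control libraries alone (1442 at an unadjusted p under 0.05) or without the 2 libraries rich in pancreas RNA (976). The 3 called genes were among the 542, 513, 367 and 16. Leaving out each library gave 1 to 14 calls. The difference between arms had 0 calls, 42 with DESeq2, 208 with no filter and 0 to 551 when each library was left out. The labels do not say whether libraries of the same number form pairs. Their deviations from the group means had correlations of 0.0171, -0.0554, -0.0682 and -0.0832 over 4 pairs. With groups of 2 or 3 libraries these values cannot settle it. A replicate block left 1 gene, Alyref. Signs of log2 fold changes turned for Mt2 (0.21 in exposed libraries alone and 0.22 without both 3-month controls), Nr1d2 (0.03 and 0.04 in the same fits and 0.01 without the pancreas-rich libraries), Egr1 (-0.68 and -0.67 in those fits and -0.23 with library weights) and Rpl7 (0.12 in both and 0.06 with library weights). They also turned for Scd1 (0.14 without the pancreas-rich libraries), Atp5a1 (-0.09 with the length offset), Malat1 (-0.10 in controls alone), Mup7 (-0.94 in controls alone) and Tat (-0.36, -2.14 and -0.02 for the mean of the arms, controls alone and the length offset). Hnrnpa2b1 had -0.01 with DESeq2, with its size factors and with a 5 CPM filter, -0.09 in controls alone and -0.06 with the length offset. Leaving out each library in turn gave -1.86 to 0.32 for Mt1, -2.47 to 0.91 for Mt2, -0.13 to 0.78 for Egr1, -0.71 to 0.07 for Scd1, -0.11 to 0.14 for Rpl7, -0.03 to 0.04 for Hnrnpa2b1, -0.02 to 0.12 for Reln and -0.59 to 0.91 for Tat. The causes were not tested.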
